A study of Mus musculus with 15 samples.

Results

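Proteins that copy DNA and divide cells were followed here through the RNA of 45 genes in mouse lung after silica given as nasal drops and dimethyl sulfoxide (DMSO). The genes were chosen as the rows of the deposited count table whose gene name equals a name on a list of 45 cell cycle genes. All 45 were among the 57010 genes of the table, and all 45 were among the 17630 genes that passed the filter on low counts. By their known roles, 13 serve DNA replication, 4 are regulators of entry into the cycle and 28 serve mitosis.

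RNA labelled as lung tissue of C57BL/J mice was sequenced in 15 libraries. The 4 control libraries came from mice given physiological saline, and the 4 DMSO libraries from mice given DMSO. Silica particles in suspension were given as nasal drops to the mice of the 3 silica libraries, and the mice of the 4 silica_DMSO libraries received silica and then DMSO on the second day. Lungs were taken at day 30. The labels give no dose, sex or age. Nothing in them says that every library is its own animal, and p-values therefore measure only the spread between libraries, which may be technical. The libraries keep the numbers of their labels, which are 1, 2, 4 and 7 for control, 1, 4, 6 and 7 for DMSO, 1, 2 and 7 for silica and 2, 4, 5 and 6 for silica_DMSO.

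A dividing cell licenses its DNA by loading the MCM helicase, copies it in S phase with nucleotides made by ribonucleotide reductase, and then condenses and separates its chromosomes on the mitotic spindle. E2F transcription factors switch on the replication genes at the entry into S phase, and FOXM1 and the DREAM and MuvB complexes time the mitotic genes. Most cells of the adult lung are out of the cycle, and macrophages, lymphocytes and epithelial cells are among those known to divide after injury. Bulk RNA cannot tell more dividing cells from more RNA in each of them.

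Promoter motifs, which the choice of genes did not use, differed in frequency between the replication and the mitosis genes. RefSeq promoter windows (GRCm38.p6, 250 bases before to 50 bases after the start) were matched by symbol for 38 of the 45 genes, and Ccna2, Tpx2, Foxm1, Aurkb, Mcm4, Kif20a and Gins2 were not matched. The motifs were searched on both strands. The cell cycle homology region, known for timing late cell cycle genes, was searched as TTTGAA and was found in 18 of 24 mitosis genes (75.0%) and 2 of 11 replication genes (18.2%), against 20.2% of all 27025 genes with a window. The CCAAT box, a site of the factor NF-Y, was found in 21 of 24 mitosis genes (87.5%), 9 of 11 replication genes (81.8%) and 41.1% of all genes with a window. The E2F site was searched as TTTCCCGC, TTTCGCGC, TTTGCCGC and TTTGGCGC. It was found in 5 of 11 replication genes (45.5%) and 1 of 24 mitosis genes (4.17%), against 2.60% of all genes with a window. A match describes the letters and shows no binding.

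The following stretches show the arrangement in 5 mitosis genes, with matches of the cell cycle homology region and the CCAAT box in capitals, on either strand, as read 5′ to 3′ on the strand of the gene. They lie at chr10:69352916-69352998 (minus strand) for Cdk1, chr4:118437344-118437402 (minus strand) for Cdc20, chr11:99024201-99024293 (minus strand) for Top2a, chr7:135716466-135716573 (minus strand) for Mki67 and chr19:37376331-37376374 (plus strand) for Kif11, all upstream of the transcription start. Only matches near the last cell cycle homology region before the start are shown, and Cdk1 and Top2a hold others further upstream.
Cdk1: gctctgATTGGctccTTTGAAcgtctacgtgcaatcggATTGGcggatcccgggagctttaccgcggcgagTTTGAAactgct
Cdc20: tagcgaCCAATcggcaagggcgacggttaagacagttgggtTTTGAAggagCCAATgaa
Top2a: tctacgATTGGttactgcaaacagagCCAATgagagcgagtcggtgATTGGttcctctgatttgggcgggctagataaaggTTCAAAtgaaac
Mki67: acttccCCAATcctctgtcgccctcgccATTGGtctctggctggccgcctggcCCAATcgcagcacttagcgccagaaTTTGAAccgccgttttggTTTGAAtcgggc
Kif11: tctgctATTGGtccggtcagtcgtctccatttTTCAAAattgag

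In 4 replication genes the capitals mark E2F matches and CCAAT boxes, and where E2F matches overlap the run of capitals holds more than 1 of them. The stretches lie at chr8:75109350-75109442 (plus strand) for Mcm5, chr1:128359709-128359821 (minus strand) for Mcm6, chr5:138172035-138172054 (minus strand) for Mcm7 and chr11:98908007-98908026 (plus strand) for Cdc6, upstream of the start. Mcm5 holds 2 E2F matches and Mcm6 holds 3. Only matches near the last E2F match before the start are shown. Closer to the start, Mcm7 has further CCAAT boxes at -72 and -26 and Mcm5 has one at -22.
Mcm5: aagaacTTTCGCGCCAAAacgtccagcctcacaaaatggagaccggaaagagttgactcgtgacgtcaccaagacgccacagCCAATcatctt
Mcm6: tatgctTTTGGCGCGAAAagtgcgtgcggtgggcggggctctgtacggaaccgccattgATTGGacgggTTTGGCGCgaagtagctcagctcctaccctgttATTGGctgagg
Mcm7: cgaaccGCGGGAAAcagggt
Cdc6: tggagaGCGGGAAAtcgcct

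Before the groups can be compared, 3 libraries have to be set apart. The libraries labelled DMSO 7, silica_DMSO 4 and silica_DMSO 6 held thymus RNA: Rag1, the recombinase of developing lymphocytes, stood at 3282, 2209 and 2202 normalised CPM in them and at 0.305 or less in the other 12. Foxn1, the regulator of thymic epithelium, had 0 counts in the other 12 libraries and 7.77, 21.8 and 14.4 normalised CPM in these 3. Sftpc, the surfactant protein C of alveolar type 2 cells, was between 11580 and 44010 normalised CPM in the 12 libraries and at 4310, 636 and 93.4 in the 3. Normalised CPM are CPM of libraries scaled by TMM factors of all 15 libraries. Total counts ran from 17434653 to 20829923 per library. The comparisons below rest on the 12 lung libraries (4 control, 3 DMSO, 3 silica and 2 silica_DMSO), in 1 fit of edgeR's quasi-likelihood test with a biological coefficient of variation of 0.520. Fold changes are log2 values followed by their standard error (SE), and p-values were adjusted over all 17630 genes. A gene counts as called at an adjusted p under 0.05.

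A further difference between lung libraries was gene length. Genes over 3000 bases took 24.2%, 39.3%, 44.9% and 35.5% of counts in control 1, 2, 4 and 7, and 42.8%, 34.03% and 22.5% in silica 1, 2 and 7. They took 23.7%, 12.4% and 35.9% in DMSO 1, 4 and 6, and 40.0% and 11.46% in silica_DMSO 2 and 5. DMSO 4 and silica_DMSO 5 also had the smallest scaling factors (0.616 and 0.478, where the other 13 lay from 0.898 to 1.24). The median length of the cell cycle genes was 2965 bases, against 2653 bases over all genes tested.

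**Figure D1:**
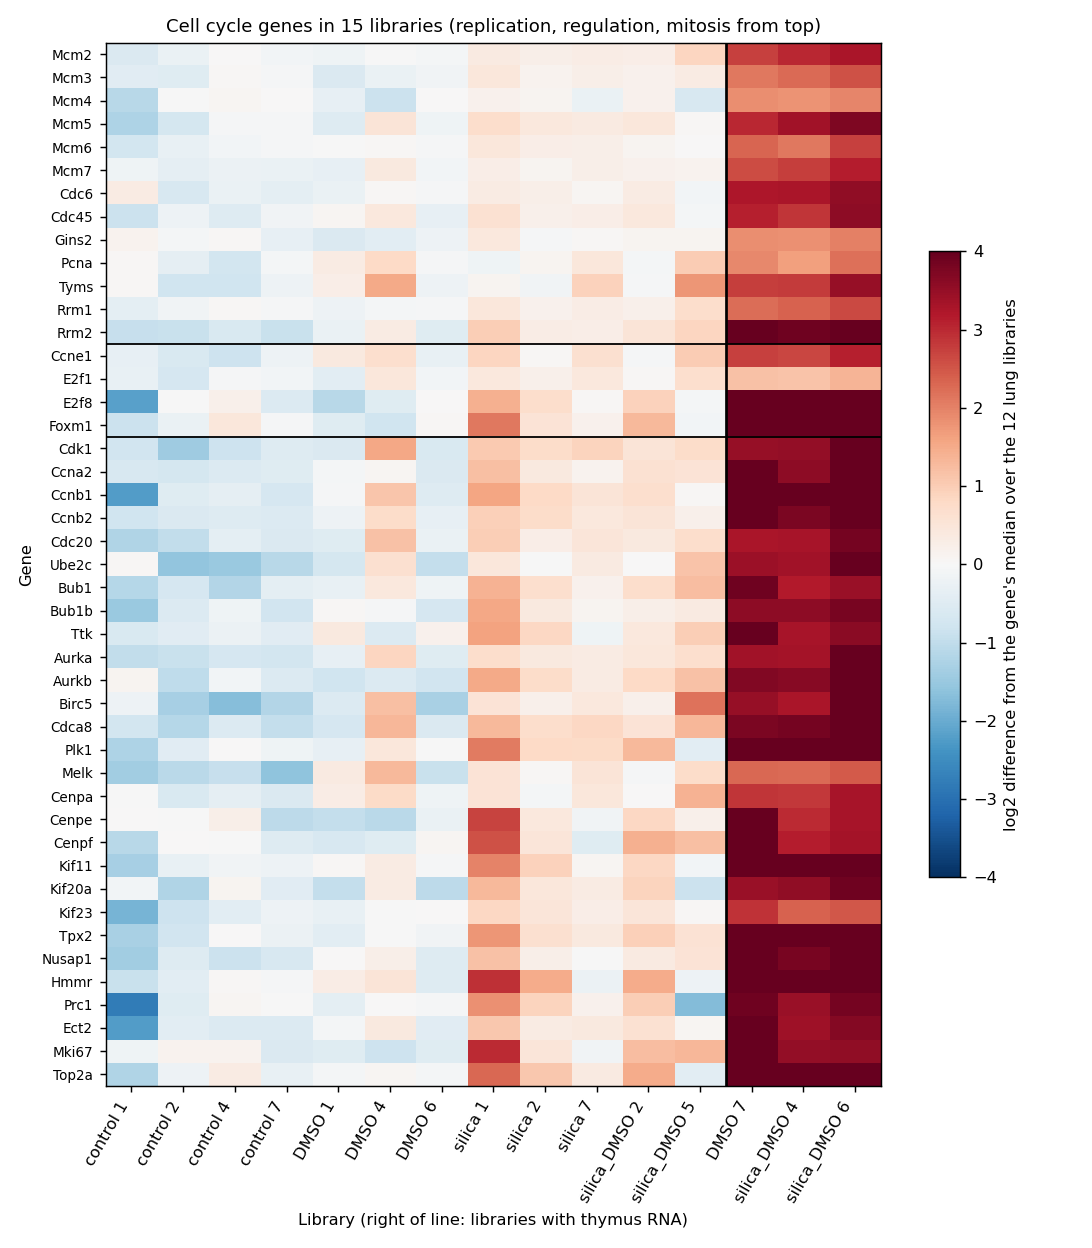
Heat map of the 45 genes (rows: 13 replication, 4 regulation and 28 mitosis genes from the top) in 15 libraries (columns), coloured by the log2 difference of normalised CPM + 0.1 from the gene's median over the 12 lung libraries, with colours ending at -4 and 4. The 3 columns to the right of the line, which hold thymus RNA, are red throughout, and among the lung libraries silica 1 is the most red and control 1 the most blue.

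Silica lungs were compared with saline lungs to find the change with silica alone. All 45 genes were higher on average in silica than in control lungs in normalised CPM (44 in both fits of log2 TPM, where Cenpf was lower), with a median difference of 1.30 on the log2 scale, where 47.0% of all genes tested were higher and their median was -0.03. None of the 45 passed the adjusted test, in which 2 of 17630 genes were called (0.0113%); the smallest adjusted p was 0.213, for Rrm2. At an unadjusted p under 0.05, 32 of the 45 were higher and none lower, where 4.18% of all genes were higher at that level. That count was 8 in log2(TPM + 1), 7 in log2(TPM + 0.1) and 1 in a fit of all 15 libraries. Of all genes, 537 and 472 of 17630 and 522 of 17879 had such a p in those fits, in either direction. DESeq2 called 4 of the 45 higher (Rrm2, Ccna2, Ccnb2 and Bub1; 0.669% of genes were called higher), and limma-voom with quality weights called 27 higher (4.37% of genes). A fit of the 7 silica and control libraries alone called 0.249% of genes and none of the 45, with a smallest adjusted p of 0.0616.

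For 32 of the 45 genes every silica library lay above every control library, a pattern that 5.83% of all genes tested showed. That count depended on the scaling. With CPM of the library total it was 26 (5.11% of all genes), and with the authors' TPM it was 6 (2.72% of all genes): Cdk1, Ube2c, Birc5, Cdca8, Melk and Kif23. The count was 33 without silica 1 (12.4% of all genes) and 43 without silica 7 and control 1 (12.4% of all genes), 2 libraries with few counts in long genes.

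Mitosis genes stood further from control than replication genes. The 28 mitosis genes had a median of 1.51 in silica over control and 26 of them an unadjusted p under 0.05. The 13 replication genes had a median of 0.46 and 4 such genes, and the 4 regulators a median of 1.13 and 2 such genes. The difference between these sets was not tested. The extremes were Hmmr (2.23 ± 0.68), Mki67 (1.82 ± 0.59) and Ccnb1 (1.81 ± 0.52) at the upper end, and Gins2 (0.16 ± 0.23), Mcm4 (0.17 ± 0.35) and Pcna (0.37 ± 0.34) at the lower.

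Silica 1 carried much of the size. It was the highest of the 12 lung libraries for 29 of the 45 genes, and control 1 was the lowest for 25. The summed level of the mitosis genes was 530 normalised CPM in silica 1 and 244 and 207 in silica 2 and 7, while control lungs held 93.7, 109, 134 and 113. Without silica 1 the median over the 45 genes was 0.89, all 45 were still higher and 18 had an unadjusted p under 0.05. In that fit 721 of 17421 genes had such a p in either direction. Single genes moved further: Mki67 went from 1.82 to 0.28, Cenpe from 1.67 to 0.29, Cenpf from 1.76 to 0.43, Foxm1 from 1.30 to 0.49 and Hmmr from 2.23 to 1.19. Cdk1 (1.74 to 1.68), Aurka (1.30 to 1.20) and Mcm2 (0.50 to 0.48) changed little. With an offset for gene length the median of the 45 was 1.34, and with that offset and no silica 1 it was 0.93.

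**Figure D2:**
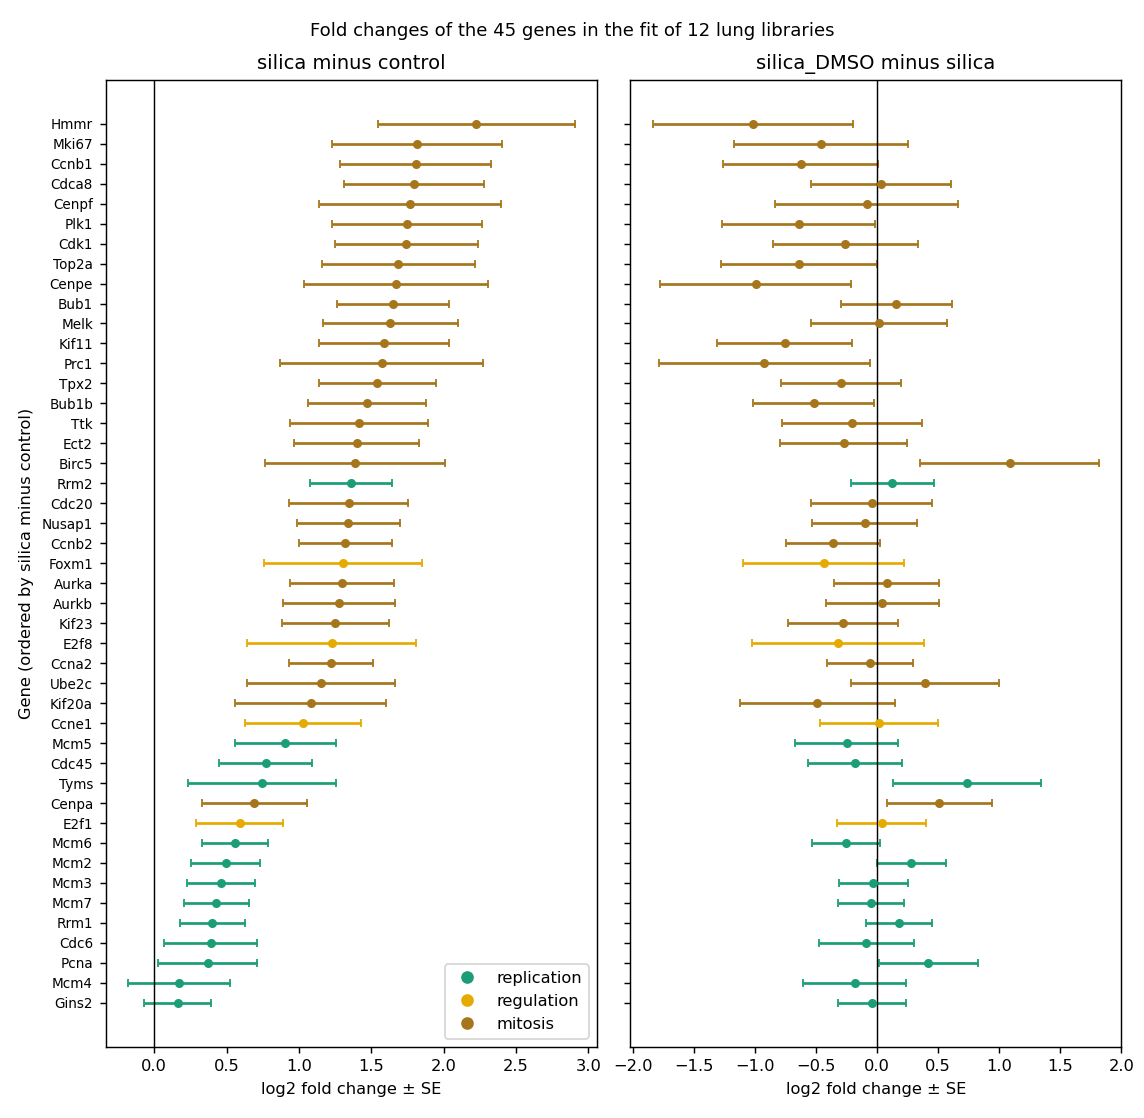
Log2 fold changes with SE (horizontal axis) of the 45 genes (rows, ordered by silica minus control), for silica minus control on the left and silica_DMSO minus silica on the right, coloured by role. On the left every point is above 0. The replication genes run from 0.16 to 1.36, most of them near the bottom, with Rrm2 (1.36) above the median of the 45 genes. On the right 30 points are below 0 and 15 above.

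The MCM genes, which encode the 6 subunits of the replicative helicase, showed small differences with silica. Values are given in normalised CPM in the order of the library numbers, for the lung libraries only. Mcm2 was at 11.4, 14.1, 17.0 and 15.8 in control, 15.1, 16.9 and 16.2 in DMSO, 21.9, 20.1 and 20.9 in silica and 20.6 and 30.6 in silica_DMSO lungs. All 5 libraries with silica lay above all 7 without, and silica minus control was 0.50 ± 0.24. Mcm3 read 19.9, 19.6, 28.5 and 26.2 in control, 18.3, 22.9 and 24.9 in DMSO, 37.4, 29.9 and 32.2 in silica and 31.0 and 34.02 in silica_DMSO lungs. It too was higher in all 5 libraries with silica than in all 7 without, with 0.50 ± 0.18 for silica averaged over DMSO and 0.46 ± 0.24 for silica minus control. For Mcm4 the levels were 14.9, 32.5, 34.8 and 32.8 in control, 25.8, 17.9 and 33.1 in DMSO, 36.7, 34.9 and 27.4 in silica and 37.0 and 21.0 in silica_DMSO lungs. The Mcm4 groups overlapped, control 1 being the lowest library, and without it silica minus control turned from 0.17 to -0.04.

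Mcm5 levels were 6.46, 9.50, 14.97 and 15.1 in control, 10.8, 21.9 and 13.8 in DMSO, 25.4, 20.8 and 19.8 in silica and 21.2 and 15.7 in silica_DMSO lungs. Every silica library was above every control library, and DMSO 4 lay among the silica libraries. The difference of 0.90 ± 0.35 was the largest of the 6 MCM genes (unadjusted p = 0.0244, edgeR's quasi-likelihood test). Mcm6 stood at 24.5, 33.5, 38.2 and 39.8 in control, 40.1, 42.5 and 39.4 in DMSO, 55.8, 49.0 and 48.6 in silica and 43.8 and 41.8 in silica_DMSO lungs. All 3 silica libraries of Mcm6 were above the other 9. Silica minus control was 0.56 ± 0.23, and silica_DMSO minus silica was -0.26 ± 0.28. Mcm7 was measured at 23.9, 20.7, 23.1 and 22.1 in control, 21.3, 35.0 and 25.1 in DMSO, 32.1, 28.8 and 31.6 in silica and 30.0 and 29.6 in silica_DMSO lungs. Its silica libraries lay above all control libraries (0.43 ± 0.23), and DMSO 4 was the highest of the 12. The E2F matches shown above belong to Mcm5, Mcm6 and Mcm7 of this family.

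CDC6 loads the helicase on origins, and CDC45 and GINS2 activate it. Cdc6 was at 4.99, 2.50, 3.30 and 3.002 in control, 3.29, 4.06 and 3.84 in DMSO, 5.01, 4.64 and 4.15 in silica and 4.98 and 3.66 in silica_DMSO lungs, with control 1 among the silica values (0.39 ± 0.32). Cdc45 was at 2.29, 3.73, 2.98 and 3.83 in control, 4.51, 5.72 and 3.38 in DMSO, 6.65, 4.95 and 5.19 in silica and 5.77 and 4.06 in silica_DMSO lungs. Silica and control did not overlap for Cdc45 (0.77 ± 0.32, unadjusted p = 0.0347, edgeR's quasi-likelihood test). Gins2 gave 19.7, 17.1, 18.4 and 14.3 in control, 11.8, 13.4 and 15.4 in DMSO, 23.8, 17.4 and 18.3 in silica and 19.3 and 19.3 in silica_DMSO lungs, and its groups overlapped between silica and control.

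Of the genes for DNA synthesis, Rrm2 differed most. Its product is the S-phase subunit of ribonucleotide reductase, and Rrm1 encodes the partner subunit that is present through the cycle. Rrm2 was at 6.46, 6.61, 8.06 and 6.51 in control, 10.1, 15.5 and 8.78 in DMSO, 24.4, 15.2 and 14.8 in silica and 17.3 and 22.1 in silica_DMSO lungs. The group means were 6.91 ± 0.770 (SD, n = 4) in control and 18.1 ± 5.47 (SD, n = 3) in silica lungs. Control was below every other library, so both the silica and the DMSO libraries were clear of it. Silica minus control was 1.36 ± 0.28 (adjusted p = 0.213 with edgeR's quasi-likelihood test, 0.00610 with DESeq2), and 1.11 without silica 1. Rrm1 was at 29.9, 35.8, 40.1 and 38.2 in control, 33.7, 37.1 and 38.1 in DMSO, 53.4, 44.1 and 48.0 in silica and 45.6 and 64.5 in silica_DMSO lungs. All 5 libraries with silica were above all 7 without for Rrm1, with 0.49 ± 0.17 for silica averaged over DMSO and 0.40 ± 0.22 for silica minus control.

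Pcna, the sliding clamp of the DNA polymerases, was the most abundant of the 45 genes per length, with a median of 68.9 TPM over the lung libraries. Mcm3 (17.0 TPM) came next, and Cenpf (0.245 TPM) had the lowest level. Pcna read 108, 81.8, 62.5 and 98.7 in control, 132, 181 and 100.1 in DMSO, 91.6, 113 and 141 in silica and 99.0 and 211 in silica_DMSO lungs. Its groups overlapped, and the highest libraries were silica_DMSO 5 and DMSO 4, the 2 with the fewest counts in long genes. Tyms, the thymidylate synthase gene, was likewise highest in silica_DMSO 5 (9.04 and 31.8 in silica_DMSO 2 and 5) and DMSO 4 (11.4, 26.7 and 8.13 in DMSO 1, 4 and 6), and silica minus control was 0.74 ± 0.51.

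**Figure D3:**
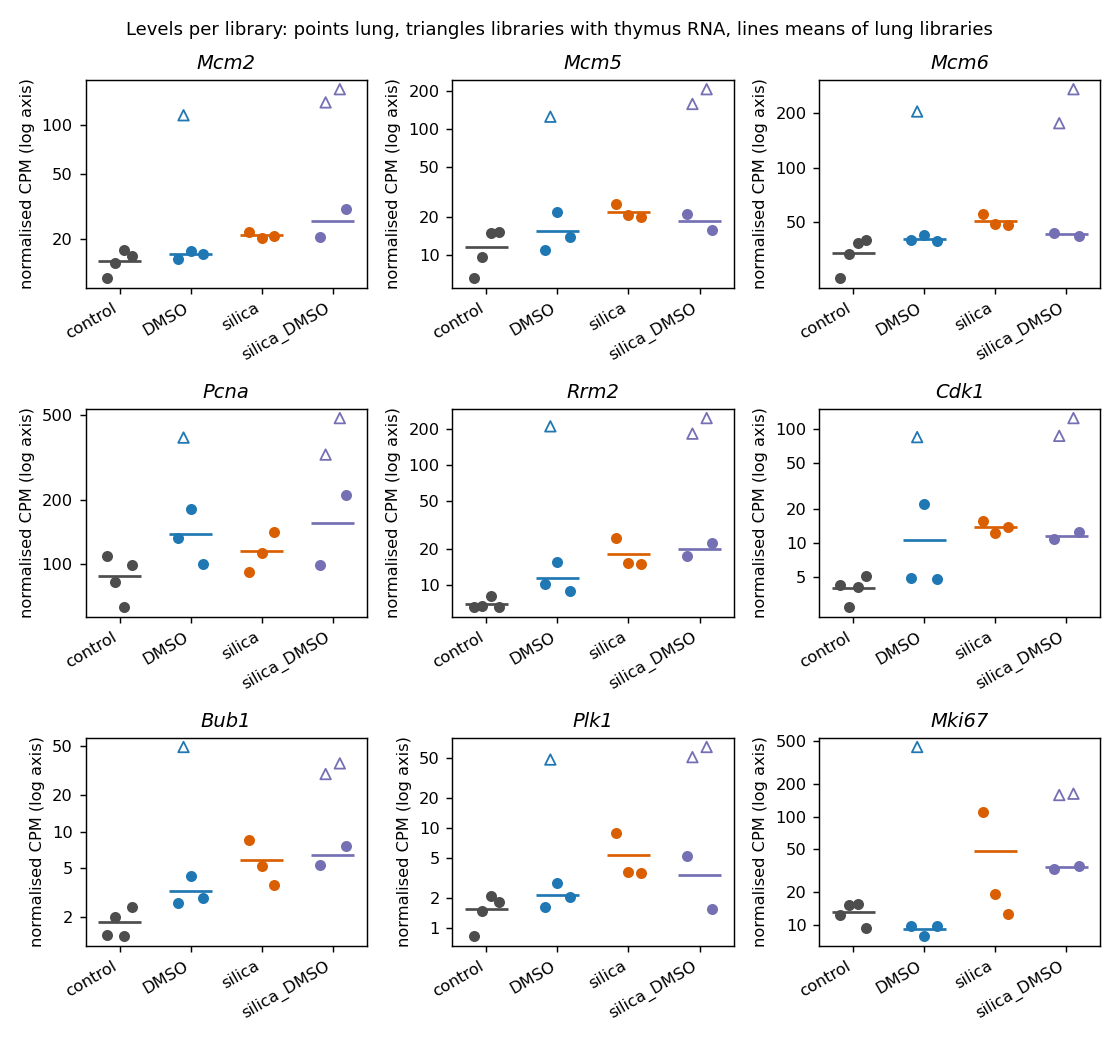
Normalised CPM (vertical log axes) of 9 genes by group, with 1 filled point per lung library, lines at the group means of the lung libraries and open triangles for the 3 libraries with thymus RNA. The silica points of Mcm2, Mcm5, Mcm6, Rrm2, Cdk1, Bub1 and Plk1 sit above all control points, those of Pcna and Mki67 overlap them, and the triangles are above every filled point.

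The regulators start S phase or time mitosis. E2F1 is the transcription factor of S-phase entry, E2F8 a repressor that follows it, cyclin E1 (Ccne1) the partner of CDK2, and FOXM1 an activator of mitotic genes. E2f1 was at 6.04, 4.58, 7.17 and 6.88 in control, 5.55, 10.3 and 6.95 in DMSO, 9.93, 8.50 and 10.02 in silica and 7.69 and 11.9 in silica_DMSO lungs. Silica and control did not overlap for E2f1 (0.59 ± 0.30), while DMSO 4 reached the silica values. Foxm1 was at 1.41, 2.17, 3.65 and 2.54 in control, 1.85, 1.49 and 2.74 in DMSO, 11.8, 3.91 and 3.01 in silica and 6.60 and 2.44 in silica_DMSO lungs. Only silica 1 and silica_DMSO 2 were well clear of control for Foxm1, and silica 7 was below control 4. Ccne1 (1.03 ± 0.40) kept silica above control in every library, and E2f8 (1.23 ± 0.58) did not.

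Cyclin and anaphase genes were among the clearer ones. CDK1 with cyclins A2, B1 and B2 drives entry into mitosis, and CDC20 and UBE2C work with the anaphase-promoting complex that ends it. Cdk1 was at 4.28, 2.74, 4.10 and 5.13 in control, 4.91, 22.1 and 4.80 in DMSO, 15.5, 12.4 and 13.8 in silica and 10.8 and 12.49 in silica_DMSO lungs. The mean was 4.06 ± 0.989 (SD, n = 4) in control and 13.9 ± 1.57 (SD, n = 3) in silica lungs, with no overlap, also in TPM. Cdk1 in silica minus control was 1.74 ± 0.49, and DMSO 4 was the highest of all 12 lung libraries while DMSO 1 and 6 lay within the control range. Ccnb1 was at 0.822, 3.02, 3.34 and 2.68 in control, 4.10, 9.29 and 2.97 in DMSO, 13.0, 7.46 and 6.18 in silica and 6.95 and 4.47 in silica_DMSO lungs, clear of control in every silica library. Cdc20 gave 3.05, 3.59, 5.43 and 4.71 in control, 5.08, 16.2 and 5.99 in DMSO, 14.2, 8.55 and 9.96 in silica and 9.48 and 11.7 in silica_DMSO lungs, with DMSO 4 again the highest. Silica lay above control in each library for Ccna2 (1.22 ± 0.29) and Ccnb2 (1.32 ± 0.32) as well. Ube2c (1.15 ± 0.51) overlapped through control 1 in normalised CPM, and in TPM its silica libraries were all above control.

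The genes of the spindle checkpoint and the mitotic kinases were also higher on average in silica than in control lungs. BUB1, BUBR1 (Bub1b) and TTK hold back anaphase until every chromosome is attached, Aurora A (Aurka) and PLK1 build the spindle poles, and Aurora B (Aurkb) with survivin (Birc5) and borealin (Cdca8) corrects attachments. Bub1 was at 1.41, 1.98, 1.38 and 2.40 in control, 2.60, 4.31 and 2.83 in DMSO, 8.52, 5.21 and 3.63 in silica and 5.29 and 7.62 in silica_DMSO lungs. Every library of the other 3 groups was above every control library, and silica minus control was 1.65 ± 0.38 (adjusted p = 0.277 with edgeR's quasi-likelihood test, 0.0151 with DESeq2). Aurka was at 2.05, 2.22, 2.58 and 2.49 in control, 3.29, 7.71 and 2.97 in DMSO, 6.79, 5.53 and 5.29 in silica and 5.72 and 6.70 in silica_DMSO lungs. It had the same pattern, with DMSO 4 the highest of the 12 (1.29 ± 0.36). Plk1 was at 0.822, 1.46, 2.09 and 1.80 in control, 1.62, 2.82 and 2.01 in DMSO, 8.90, 3.65 and 3.53 in silica and 5.20 and 1.52 in silica_DMSO lungs. Silica was clear of control for Plk1 (1.75 ± 0.52), but silica_DMSO 5 was within the control range. The other members of this group (Bub1b, Ttk, Aurkb, Birc5, Cdca8 and Melk, a kinase of dividing cells) had differences from 1.28 to 1.80, each with an unadjusted p under 0.05 and no overlap of silica and control.

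Centromere, spindle and chromosome genes included the longest of the 45 and several with wide spread. Ki-67 (Mki67) coats mitotic chromosomes and marks dividing cells, and topoisomerase II alpha (Top2a) untangles them. Mki67 was at 12.3, 15.3, 15.5 and 9.33 in control, 9.88, 7.88 and 9.87 in DMSO, 111, 19.4 and 12.7 in silica and 33.2 and 35.2 in silica_DMSO lungs. Silica 1 was far above the others, silica 7 lay within the control range, and both silica_DMSO libraries were above all control and DMSO libraries. Top2a read 6.28, 12.6, 18.5 and 11.8 in control, 13.7, 15.5 and 13.7 in DMSO, 72.4, 31.0 and 18.9 in silica and 40.6 and 10.97 in silica_DMSO lungs. Silica 7 was just above the highest control library for Top2a (1.69 ± 0.53), and silica_DMSO 5 was within the control range. Hmmr, which encodes a spindle protein, was at 0.646, 0.945, 1.34 and 1.25 in control, 1.62, 1.91 and 0.868 in DMSO, 10.4, 3.75 and 1.09 in silica and 3.76 and 1.12 in silica_DMSO lungs, so its highest fold change came from silica 1 and 2. The centromere genes Cenpe (1.67 ± 0.63) and Cenpf (1.76 ± 0.63), 7910 and 11130 bases long, overlapped between silica and control in normalised CPM, as did Cenpa (0.69 ± 0.36), the gene of the centromeric histone. In TPM the direction for Cenpf turned, as mean TPM was 0.975 in control and 0.603 in silica lungs and the difference in log2(TPM + 1) was -0.14. That control mean rested on 1 control library at 3.07 TPM, the highest of the 12, where the median of the 12 was 0.245 TPM. The motor and midzone genes Kif11, Kif20a, Kif23, Tpx2, Nusap1, Prc1 and Ect2 had differences from 1.08 to 1.59 and did not overlap between silica and control.

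**Figure D4:**
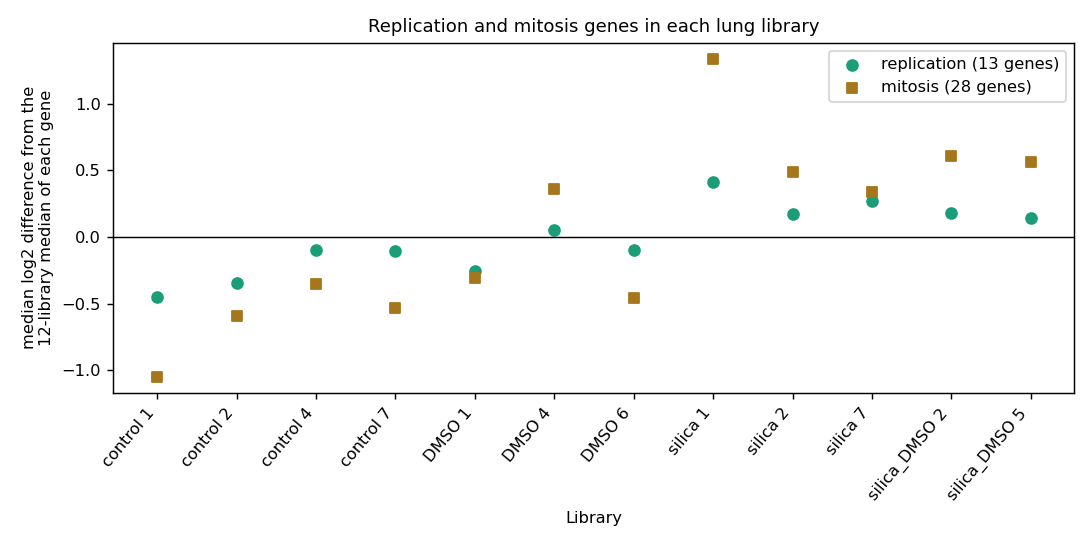
Median over the 13 replication genes (circles) and the 28 mitosis genes (squares) of the log2 difference from each gene's median over the 12 lung libraries, per library. Control libraries lie below 0 in both sets and all 5 libraries with silica above 0, with silica 1 at 1.34 for mitosis and 0.41 for replication, and DMSO 4 the only library without silica above 0.

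Other cell cycle genes, from lists drawn up beside the 45, were examined in the same fit. Of 45 further mitosis genes 43 were higher in silica than in control lungs, 27 at an unadjusted p under 0.05, with a median of 1.04. Of all genes tested 47.0% were higher, and 4.18% were higher at that level. Among them Cdc25c, the phosphatase that activates CDK1, differed by 2.55 ± 0.64 and Ckap2l, a spindle protein gene, by 1.74 ± 0.37. Of 30 further licensing and replication genes 28 were higher, 9 at that level, with a median of 0.54, and Uhrf1, which maintains DNA methylation behind the fork, differed by 1.51 ± 0.35. None of these genes was called by edgeR's quasi-likelihood test with adjustment over all genes.

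Markers of other cell types were summed in the same libraries, and apart from 1 macrophage gene none of those in the lists named here was called in silica against control. Genes of lipid-handling macrophages had a median of 2.69, with 6 of 6 higher and 1 called, and their summed level was 181 to 299.8 normalised CPM in control, 1122 to 2295 in silica, 273 to 599 in DMSO and 721 to 2360 in silica_DMSO lungs. Monocyte and interstitial macrophage genes (7 of 7 higher, median 1.33) summed to 191 to 268 in control, 526 to 662 in silica, 198 to 1331 in DMSO and 420 to 1462 in silica_DMSO lungs. Alveolar macrophage genes (3 of 6 higher, median -0.07) summed to 517 to 835 in control and 575 to 1180 in silica lungs. Their sums were 571 to 1359 in DMSO and 775.5 to 1604 in silica_DMSO lungs. The 5 plasma cell genes (5 of 5 higher, median 1.05) summed to 501 to 1222 in control, 732 to 3446 in silica, 497 to 9602 in DMSO and 1207 to 3259 in silica_DMSO lungs. T cell genes (4 of 6 higher, median 0.25) summed to 106 to 144 in control and 125 to 168 in silica lungs, and 2 of 5 B cell genes were higher. The T cell sums were 141 to 338 in DMSO and 119 to 307 in silica_DMSO lungs, highest in DMSO 4 and silica_DMSO 5. Germinal centre B cell genes (4 of 5 higher) summed to 104 to 145 in control and 114 to 152 in silica lungs. The 5 neutrophil genes were all higher on average (median 1.37, 2 of 5 at an unadjusted p under 0.05). They summed to 84.8 to 169 in control, 58.1 to 736 in silica, 232 to 1151 in DMSO and 385 to 532 in silica_DMSO lungs, with silica 1 the lowest of the 12. All 5 erythroid genes were lower on average in silica lungs (median -1.52), with sums of 598 to 6918 in control and 359 to 2327 in silica lungs, as were all 5 alveolar type 1 genes (median -0.72; 1959 to 4958 and 1350 to 2096). Erythroid sums were 3321 to 13210 in DMSO and 899.6 to 21880 in silica_DMSO lungs. Endothelial and mesothelial genes were lower in silica lungs in 5 of 5 cases each (medians -0.91 and -3.47). The part of any of these cell types in the differences of the cell cycle genes was not tested. In silica 1, the highest library for most of the 45, the thymocyte list summed to 61.6 normalised CPM, the highest of the 12, with Rag1 and Dntt each at 0.187 and Foxn1 at 0 counts. Silica 1 also had the highest sums of the 12 for B cell (288), germinal centre B cell (152), fibroblast (1151) and thymic epithelium (5.1) genes. Besides the neutrophil sum, its alveolar type 2 (19190) and club cell (8494) sums were the lowest of the 12.

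DMSO lungs were compared with saline lungs for the change with DMSO alone. Of the 45 genes 35 were higher, with a median of 0.45 (all genes tested: 47.8% higher, median -0.04). None was called, nor was any other gene (0%), and 7 had an unadjusted p under 0.05, all higher, where 6.14% of all genes were higher at that level. DESeq2 called none of the 45. Limma-voom called 17, 14 of them higher, in a fit that called 48.2% of all genes. Melk was the highest (1.76 ± 0.47), at 1.53, 1.89, 2.14 and 1.29 normalised CPM in control and 5.32, 10.3 and 2.19 in DMSO lungs. Next came Cdk1 (1.35 ± 0.49) and Cdca8 (1.17 ± 0.48), while Cenpe (-0.62 ± 0.66), Mki67 (-0.52 ± 0.60) and Aurkb (-0.41 ± 0.40) were lowest. For 6 of the 45 (Rrm2, Ccnb2, Bub1, Aurka, Melk and Kif11) every DMSO lung library was above every control library, against 3.85% of all genes tested. DMSO 4 was the highest of the 12 libraries for 5 genes and, among the DMSO lungs, held the largest summed mitosis level (140, 234 and 125 normalised CPM in DMSO 1, 4 and 6). Without DMSO 4 the median of the 45 was 0.23. At an unadjusted p under 0.05 there was then 1 of the 45, and 179 of 17524 genes in all. Leaving out other libraries gave from 2 of the 45 (without control 2, 1092 of 17568 genes) to 13 (without DMSO 6, 4020 of 17598 genes). The label number as a block gave 1, with 3577 of 17630 genes at that level. In log2(TPM + 1) the median of the 45 was -0.19, where that of all genes was -0.45. With all 15 libraries it was 2.64, since DMSO 7 then enters the group.

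Silica_DMSO lungs were compared with silica lungs to see what DMSO after silica changed. The lung libraries showed little difference: the median of the 45 genes was -0.10 (all genes tested: -0.02), 15 of 45 were higher, and none had a p under 0.05 before adjustment, which 342 of 17630 genes did. No gene was called (0%), and DESeq2 and limma-voom called none of the 45. Fold changes ran from -1.02 ± 0.82 for Hmmr to 1.09 ± 0.73 for Birc5. With 2 silica_DMSO libraries the SE of single genes was up to 0.86 (Prc1). For such genes even a change well above the SE could go undetected with these libraries. Mcm6 was the one gene of the 45 with both silica_DMSO libraries below all 3 silica libraries, a pattern of 3.93% of all genes. The 2 silica_DMSO libraries differed from each other, as Prc1, a midzone protein gene, was at 12.49 and 1.83 and Birc5 at 7.29 and 28.9 normalised CPM in silica_DMSO 2 and 5. The sign of the median rested on 1 library: without silica 1 it was 0.10, with 30 of 45 higher. In log2(TPM + 1) none of the 45 was higher and the median was -0.58, where all genes had -0.48. With all 15 libraries it was 2.07 and all 45 were higher, since silica_DMSO 4 and 6 then enter.

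Silica_DMSO lungs were also compared with DMSO lungs, the change with silica among mice given DMSO. Of the 45 genes 44 were higher, with a median of 0.50 (all genes tested: 54.5% higher, median 0.05). No gene was called (0%), DESeq2 and limma-voom called none of the 45, and 5 of the 45 were higher at an unadjusted p under 0.05, against 1.26% of all genes. These were Aurkb (1.73 ± 0.46), Mki67 (1.88 ± 0.70), Cenpf (1.66 ± 0.75), Rrm2 (0.77 ± 0.34) and Mcm2 (0.65 ± 0.28). For 16 of the 45 both silica_DMSO lungs were above all 3 DMSO lungs, a pattern of 4.99% of all genes. Aurkb stood at 1.62, 1.91 and 1.65 in DMSO and 5.07 and 6.50 normalised CPM in silica_DMSO lungs, and Mki67 at 9.88, 7.88 and 9.87 and 33.2 and 35.2. The number at an unadjusted p under 0.05 was 11 without DMSO 4 and 2 without DMSO 1 or DMSO 6. Of all genes, 407 of 17524 had such a p without DMSO 4, 212 of 17578 without DMSO 1 and 793 of 17598 without DMSO 6. Without silica_DMSO 2, 34 of the 45 were higher (median 0.50), and without silica_DMSO 5, 40 were (median 0.44). Each of these last fits left 1 silica_DMSO library.

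Silica averaged over DMSO set the average of the silica and silica_DMSO group means against that of the control and DMSO group means. It drew on the 5 lung libraries with silica and the 7 without, each group weighing the same. All 45 genes were higher, with a median of 0.92 (all genes tested: 48.3% higher, median -0.01). None of the 45 was called, where 16 of 17630 genes were (0.0908%); the smallest adjusted p was 0.148, for Aurkb. At an unadjusted p under 0.05, 31 of the 45 were higher, against 3.37% of all genes. That count was 14 with the label number as a block, 4 in log2(TPM + 1) and in log2(TPM + 0.1), and 2 with all 15 libraries. Of all genes, 491, 340 and 311 of 17630 and 594 of 17879 had such a p in those fits, in either direction. DESeq2 called 6 of the 45 higher (Rrm2, Ccna2, Bub1, Aurkb, Tpx2 and Mki67, adjusted p from 0.00189 to 0.0499), against 0.516% of all genes, and limma-voom called none of the 45. For 8 of the 45 (Mcm2, Mcm3, Rrm1, Ccna2, Bub1b, Aurkb, Kif23 and Tpx2) all 5 libraries with silica were above all 7 without, against 0.613% of all genes. The number was 4 with CPM of the library total (0.55% of all genes) and 1, Birc5, with TPM (0.369% of all genes). The interaction, which asks whether the silica difference depends on DMSO, had a median of -0.58 with 6 of 45 above 0 (all genes tested: median 0.07). The median was -0.31 without silica 1 and -0.35 without DMSO 4. No gene was called (0%), and Melk (-1.74 ± 0.74) and Ccnb2 (-1.11 ± 0.50) were lower at an unadjusted p under 0.05, against 1.52% of all genes. DESeq2 and limma-voom called none of the 45 for the interaction. These comparisons share libraries, so their values are not independent.

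The 3 libraries with thymus RNA stood above every lung library for all 45 genes, which 15.5% of all genes tested did. They are described with no test. Relative to the median of the 12 lung libraries, the 45 genes were at a median of 11.2-fold in DMSO 7, 10.3-fold in silica_DMSO 4 and 13.5-fold in silica_DMSO 6, where the genes tested with at least 1 normalised CPM in lung had a median of 0.932-fold. Mitosis genes were further up (15.6-fold, 11.3-fold and 15.8-fold) than replication genes (6.09-fold, 6.80-fold and 8.77-fold). In these 3 libraries Mcm5 was at 126, 159 and 208 and Rrm2 at 212, 184 and 249.1 normalised CPM. Top2a was at 539, 445 and 445, Plk1 at 48.6, 51.4 and 65.0 and Pcna at 393, 327 and 485. Their summed mitosis level was 3096, 2232 and 2793 normalised CPM, against 93.7 to 530 in the 12 lung libraries. The thymocyte markers summed to 8046, 6594 and 8448 in them and to between 19.8 and 61.6 in the lung libraries. Among the 45 genes, Cenpf (4.18-fold), Cenpe (3.72-fold), Mki67 (2.74-fold), Kif11 (1.83-fold) and Hmmr (1.77-fold) were over 1.5-fold higher in DMSO 7 than in the mean of silica_DMSO 4 and 6, and none of the 45 was over 1.5-fold lower. Genes over 3000 bases took 44.1% of counts in DMSO 7, 38.6% in silica_DMSO 4 and 34.4% in silica_DMSO 6. For Mki67 the values were 442, 159 and 163, and for Cenpf 73.6, 16.4 and 18.8 normalised CPM. Both were close between silica_DMSO 4 and 6, while other genes were higher in silica_DMSO 6, such as Birc5 at 72.0, 62.9 and 108 and Aurka at 44.2, 42.7 and 70.0 normalised CPM in the same order of libraries.

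**Figure D5:**
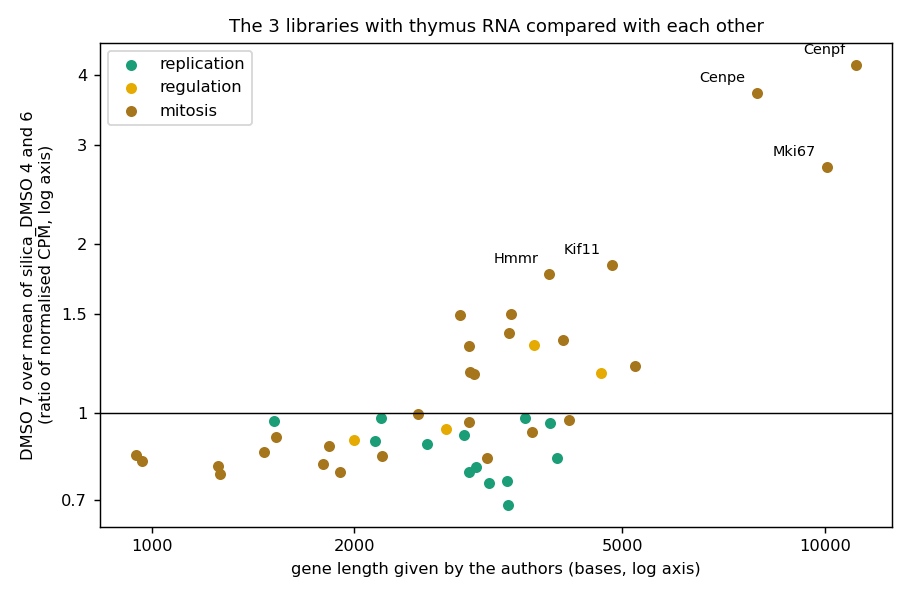
Ratio of normalised CPM in DMSO 7 to the mean of silica_DMSO 4 and 6 (vertical log axis) against gene length in bases (horizontal log axis) for the 45 genes, 1 point per gene coloured by role. The 3 longest genes, Cenpf, Mki67 and Cenpe, have the highest ratios (4.18, 2.74 and 3.72), and the 13 replication genes are all below 1.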

How the data were processed

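RNA of 15 libraries labelled as lung was sequenced. The authors deposited expected counts per gene and library and, in a second table, TPM, each beside the length of every gene, an other value the authors supply, and 8 columns of group means left unused. Bowtie 0.12.2 and the mm8 build are named by the submitters' processing notes. How the counts were estimated is not given in the sources used. The labels' extraction protocol speaks of retinas, while the tissue is given as lung. The members and gene lists were chosen with earlier results of these data known. Values in every library are given for the members set by a rule: the Mcm, Cdc and Rrm genes, Mki67, Top2a, Pcna, Cdk1, Foxm1, E2f1, Bub1, Aurka and Plk1, and the 3 highest and 3 lowest fold changes of silica against control. Other members given in every library of a group were chosen after their values were seen. For 1 marker gene no value is reported here.

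Expected counts were rounded to whole counts. Low genes were removed by filterByExpr (minimum count 10, minimum total 15, groups as design), TMM factors were applied, and edgeR's robust quasi-likelihood test was fitted to 4 group means of 12 libraries, with Benjamini-Hochberg adjustment over 17630 genes. The 3 libraries with thymus RNA were left out of this fit. Alternatives were DESeq2 and its size factors in edgeR, limma-voom, limma-trend on log2(TPM + 1) and log2(TPM + 0.1), no filter or 1 CPM in 3 libraries, all 15 libraries, only the groups compared, the label number as a block, a gene length offset (lowess span 0.3) and leaving out each library. Chosen after seeing the data were that offset without silica 1, and the counts of genes without overlap under other scalings and libraries. Tools were R 4.3.3, edgeR 4.0.16, limma 3.58.1, DESeq2 1.42.0, Python 3.11.15, pandas 2.3.3 and matplotlib 3.10.9. The fit was also run on simulated counts with known changes, as a check of the code. Their spread between libraries was set smaller than in these data, so that run does not show how many changes were missed here. Promoter windows came from RefSeq, GRCm38.p6.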

Additional observations from a re-analysis of the deposited data

Results flagged for a closer look

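A library far from the rest of its group by Dixon's test (gap to the nearest library over the whole range, for groups of 4) was found in 24 of 78 groups of values tested. Of these 24, 22 were DMSO 7, which holds thymus RNA, as the highest DMSO library. Its values in normalised CPM were 441.6 for Mki67, 538.6 for Top2a, 54.89 for Foxm1, 114.4 for Mcm2, 117.9 for Mcm3, 118.0 for Mcm4, 125.6 for Mcm5, 204.3 for Mcm6 and 164.3 for Mcm7. They were 37.73 for Cdc6, 37.31 for Cdc45, 186.4 for Rrm1, 212.5 for Rrm2, 49.5 for Bub1, 44.21 for Aurka, 48.65 for Plk1, 65.27 for Gins2, 100.4 for Ccnb1 and 54.79 for Hmmr. The summed levels in DMSO 7 were 1841 for the replication genes, 149.3 for the regulators and 3096 for the mitosis genes. The other 2 were control 1, lowest of the control group for Mcm4 at 14.91, and control 4, highest of the control group for Rrm2 at 8.063 normalised CPM. Chance alone flags about 5% of groups of 4 independent values from the same tissue. That rate cannot be set against these 24, because the genes share libraries. The DMSO and silica_DMSO groups also mix lung libraries with libraries that hold thymus RNA.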

How the results depend on the processing

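In silica against control, 44 or 45 of the 45 genes were higher under every alternative run. Members called were 4 with DESeq2 (0.669% of all genes called higher) and 27 with limma-voom (4.37%), and 0 under the others. The median was 0.98 with limma-voom, 0.81 in log2(TPM + 1) and 0.93 with the length offset and no silica 1. Leaving out 1 library gave 0.89 (without silica 1) to 1.44 (without silica 7). Mcm4 ranged from -0.044 (without control 1) to 0.28, and Cenpf was at -0.14 in log2(TPM + 1) and -0.0054 in log2(TPM + 0.1). The genes without overlap fell to 6 in TPM (2.72% of all genes). For 5 libraries against 7 they fell to 4 in CPM of the total (0.55%) and 1 in TPM (0.369%).

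For DMSO against control, limma-voom called 17 members, with 8506 of 17630 genes called in all. The median was 2.64 with all 15 libraries, -0.19 in log2(TPM + 1) and -0.31 in log2(TPM + 0.1), with 10 and 11 genes higher in the latter pair. For silica_DMSO against silica the median was 0.086 with limma-voom (26 higher), 2.07 with 15 libraries (45 higher), -0.58 and -0.94 in log2(TPM + 1) and log2(TPM + 0.1) (0 higher in each) and 0.17 with the length offset and no silica 1 (32 higher). Leaving out 1 library gave medians from -0.25 to 0.10 and 8 (without silica_DMSO 5) to 30 (without silica 1) genes higher. For silica_DMSO against DMSO the median was 0.87 with 15 libraries. Silica averaged over DMSO had 6 members called by DESeq2 (0.516% of all genes called higher) and a median of 0.56 in log2(TPM + 1). The interaction had a median of -0.20 with limma-voom, and 17 (limma-voom), 14 (15 libraries), 15 (replicate block) and 12 (length offset, no silica 1) genes above 0, or 5 to 12, with medians from -0.76 to -0.31, when 1 library was left out. The causes were not tested.

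Same-numbered libraries showed no shared deviation from their group means, with r = -0.37, -0.05 and 0.02 for control and silica and r = -0.11 and -0.46 for control and DMSO. In groups this small such values cannot show whether the label numbers pair libraries. With the number as a block, silica against control had a median of 1.39 and 0 members called. At an unadjusted p under 0.05 there were 26 members, and 991 of 17630 genes in all. The block changed no call of a member in the other comparisons. With 2 silica_DMSO lung libraries, and spread of 0.520 between libraries, precision is limited, and leaving out 1 of these 2 assumes that the remaining library varies like the other groups.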

Other observations

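Genes that hold cells out of the cycle or bring them into it did not move as a block with silica. Of 12 inhibitors and quiescence genes 7 were higher and 5 lower in silica than in control lungs (median 0.07), none at an unadjusted p under 0.05. Cdkn2a, which encodes the inhibitor p16, differed by 1.66 ± 0.86 and Cdkn1a, the p21 gene, by 0.87 ± 0.42, while Btg2, an antiproliferative gene, differed by -0.94 ± 0.53. Of 12 genes of G1 entry 8 were higher (median 0.12), and 1, the cyclin gene Ccne2 (0.77 ± 0.30), had an unadjusted p under 0.05. The cyclin D genes Ccnd1 (0.26 ± 0.58) and Ccnd2 (-0.13 ± 0.39) and Myc (0.14 ± 0.30) differed by less than their SE. None of these 24 genes was called by edgeR's quasi-likelihood test.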
